A study of Mus musculus with 6 samples.

Results

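The genes described here make prostaglandins and hyaluronan or read the prostaglandin signal, and their mRNA was followed in PA6 cells given FGF2 or BMP4. The group has 10 genes, namely PLA2G4A, PTGS1, PTGS2, PTGES, PTGIS, PTGER4, HAS1, HAS2, HAS3 and UGDH, and its probes are all those of the array that carry one of these symbols. Of the 45281 probes of the array, 14 did so and represented 9 of the 10 genes, since no probe was named HAS3. Of the 9 genes, 4 (PTGS1, PTGES, PTGIS and HAS2) were bright enough to be tested among 11872 genes in all.

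PA6 is an established mouse stromal line, on which embryonic stem cells are grown for differentiation in the study's co-cultures. Confluent pure monolayers were kept for 3 h in serum-free medium with no growth factors (-GFs), with 20 ng/ml of recombinant FGF2, or with recombinant BMP4 (10 ng/ml in the sample labels, a lower dose in the methods on co-cultures). Each group had 2 biological replicates, and according to the labels each biological replicate comprised a well of every condition. RNA was read on 6 Illumina MouseWG-6 v2.0 arrays, 1 per well, on which a probe is a short oligonucleotide carried by many beads and its intensity is their mean brightness.

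Prostaglandins are lipids that act close to the cell that makes them. Phospholipase A2 enzymes release arachidonic acid from membranes, the cyclooxygenases PTGS1 and PTGS2 turn it into prostaglandin H2, and terminal synthases convert this into prostaglandin E2 (PTGES) or prostacyclin (PTGIS). Hyaluronan is a long sugar polymer of the extracellular matrix that hyaluronan synthases extrude through the cell membrane, built from UDP-glucuronic acid and UDP-N-acetylglucosamine.

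The genes used to check the treatments moved in the groups that the labels name. EGR1 and DUSP6, early targets of FGF signaling, were higher with FGF2 than in -GFs medium by 4.19 and 3.55 on the log2 scale, and ID1, a BMP target, was higher with BMP4 by 2.77. All 10 stromal markers examined were detected on at least 1 array, among them COL1A1, VIM and PDGFRA, against 2 of 10 haematopoietic, 2 of 8 endothelial, 1 of 6 epithelial and 1 of 6 embryonic stem cell markers. Of these, CD14, TEK, CDH1 and POU5F1 were detected on all 6 arrays, whereas the leukocyte gene PTPRC, the endothelial genes PECAM1 and CDH5, and the stem cell gene NANOG were not above background on any. The number of arrays, 2 per group, limits the precision of every comparison below. In bulk RNA, more cells making a transcript and more transcript per cell cannot be told apart.

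A probe was counted as detected on an array where its deposited detection p-value, a comparison with the negative control beads, was under 0.05. The weakest detected probes had intensities of 180.1 to 200.9 arbitrary units, depending on the array. The 7 probes of PTGS1, PTGES, PTGIS and HAS2 were detected on all 6 arrays, and 6 others (both probes of PTGS2, 1 of HAS1, and those of PTGER4, PLA2G4A and UGDH) were detected on none. The remaining HAS1 probe was detected on 1 array only, the second FGF2 replicate, with an intensity of 194.5 and a detection p-value of 0.0449.

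**Figure D1:**
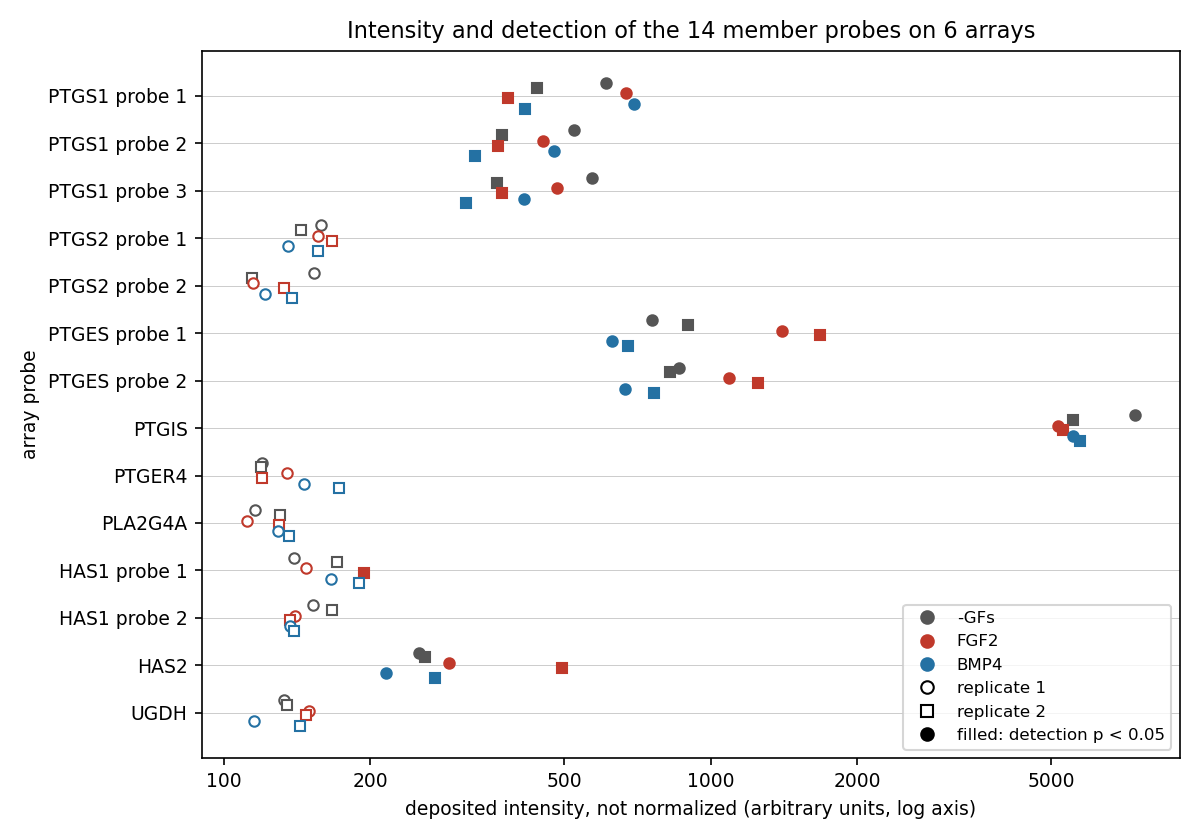
Deposited intensity of each of the 14 probes (log axis, arbitrary units) on the 6 arrays. Color gives the group, shape the replicate and filled symbols a detection p-value under 0.05. The PTGES symbols of FGF2 lie to the right of the others of the same probe, and the probes of PTGS2, PTGER4, PLA2G4A and UGDH show open symbols only.

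PTGES, the inducible microsomal prostaglandin E synthase, was the member that rose with FGF2. The probe that represented it had intensities of 757 and 900.3 in -GFs medium, 1400.4 and 1677.5 with FGF2, and 627 and 676 with BMP4. After normalization the log2 values were 9.35 and 9.91 in -GFs medium, 10.44 and 10.79 with FGF2, and 9.38 and 9.40 with BMP4. Both FGF2 arrays lay above all 4 others, whereas the BMP4 and -GFs arrays overlapped. This probe was the brighter of the PTGES probes only with FGF2 (mean log2 10.61 against 10.22). It was the dimmer in -GFs medium (9.63 against 9.66) and with BMP4 (9.39 against 9.52). Its choice by the largest mean over all arrays thus drew on the FGF2 arrays, where it was high. The difference between FGF2 and -GFs was 0.99 on the log2 scale (SE 0.22, 95% interval 0.45 to 1.52), a 1.98-fold increase, with an adjusted p of 0.0529 in limma and the same direction in both replicate pairs (1.09 and 0.88). The fold lay just under the study's threshold of 2-fold, so that at a log2 fold change beyond 1 and an adjusted p under 0.1 none of the 4 tested genes was called, against 3.53% of all genes. By the adjusted p alone PTGES was the 1 gene of 4 that rose, against 6.03% of all genes. At an unadjusted p under 0.05, limma passed 1 of the 4, against 2767 of all 11872 genes, and the methods' t-test none.

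The value of PTGES stayed above 0 whichever array was left out, but its adjusted p did not always pass. Leaving out 1 array leaves its group with a single array, whose spread is then taken from the other groups. Without the first -GFs array the difference was 0.71 with an adjusted p of 0.146, and without the first or the second FGF2 array it was 1.16 (adjusted p = 0.165) or 0.81 (adjusted p = 0.301). Without the second -GFs array it was 1.26 and passed both thresholds. The other PTGES probe gave log2 values of 9.54 and 9.78 in -GFs medium, 10.08 and 10.35 with FGF2, and 9.48 and 9.56 with BMP4. It showed the same order of groups with a smaller difference between FGF2 and -GFs, 0.55 (SE 0.17), whose adjusted p over all probes was 0.115.

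The promoter of PTGES is shown because it was the member that rose, next to those of PTGS1, detected in all groups, and PTGS2, not detected in any. The sequences are the RefSeq windows of GRCm38.p6 from 250 bases before to 50 bases after an annotated transcript start, written 5′ to 3′ on the strand of the gene, with matches to the motifs searched in capitals.
PTGES promoter (chr2:30903248-30903547, minus strand): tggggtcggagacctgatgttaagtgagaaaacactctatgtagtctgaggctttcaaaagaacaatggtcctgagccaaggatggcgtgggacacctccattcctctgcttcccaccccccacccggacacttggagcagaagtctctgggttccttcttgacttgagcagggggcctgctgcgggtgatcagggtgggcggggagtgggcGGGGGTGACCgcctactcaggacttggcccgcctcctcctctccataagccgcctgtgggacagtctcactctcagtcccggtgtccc
PTGS1 promoter (chr2:36230176-36230475, plus strand): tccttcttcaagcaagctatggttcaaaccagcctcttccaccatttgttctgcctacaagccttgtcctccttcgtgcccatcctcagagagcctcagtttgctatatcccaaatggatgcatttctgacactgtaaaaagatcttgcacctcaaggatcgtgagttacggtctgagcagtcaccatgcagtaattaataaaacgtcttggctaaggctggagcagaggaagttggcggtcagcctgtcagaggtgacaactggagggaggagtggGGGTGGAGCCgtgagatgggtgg
PTGS2 promoter (chr1:150099781-150100080, plus strand): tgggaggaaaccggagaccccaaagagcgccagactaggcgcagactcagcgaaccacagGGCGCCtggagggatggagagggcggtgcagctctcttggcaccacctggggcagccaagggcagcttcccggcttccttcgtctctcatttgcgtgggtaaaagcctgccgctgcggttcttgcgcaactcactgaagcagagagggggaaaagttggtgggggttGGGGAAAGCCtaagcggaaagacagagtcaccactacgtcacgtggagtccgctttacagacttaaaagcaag
The gene record of PTGES spans chr2:30889471-30931020 and that of PTGS1 chr2:36216742-36258593, so these windows surround a start inside the record, and other starts of both genes were not examined. Motifs were searched on both strands of the 32851 windows of the table. The PTGES window held a single match, to the NF-kB pattern (GGG and CC with any 5 bases between them) at position -38 relative to that start, and 50.8% of all windows held at least 1 match to it. PTGS1 and PTGS2 each held a match to the same pattern, and PTGS2 also held the pattern GGCGCC of BMP response elements, present in 11.9% of windows. The patterns TGACGTCA of the cyclic AMP response element (1.79% of windows), TGANTCA of AP-1 (7.81%), GCGNGGGCG of EGR factors (5.55%), the CArG box of serum response factor (1.63%) and TATAAA (13.6%) were not found in these 3 windows. Among the other members with a window, HAS1 held the cyclic AMP response element at position -83 and UGDH the EGR pattern at position -148, overlapping an NF-kB match. A match to a pattern is a description of the letters only. Windows were at hand for 7 members, and those without were HAS2, HAS3 and PTGIS.

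PTGS1, the constitutive cyclooxygenase, showed no difference between the groups beyond the spread of the replicates. Its brightest probe had log2 values of 9.04 and 8.87 in -GFs medium, 9.38 and 8.67 with FGF2, and 9.54 and 8.69 with BMP4. The 3 groups overlapped, and within each of them the first replicate was the higher. The difference was 0.063 (95% interval -0.73 to 0.85, adjusted p = 0.932) for FGF2 and 0.16 (-0.63 to 0.95, adjusted p = 0.999) for BMP4, and the 2 replicate pairs differed in sign in both comparisons (0.33 and -0.21, 0.50 and -0.18). The other PTGS1 probes gave differences of -0.013 and -0.0051 with FGF2 and of -0.062 and -0.24 with BMP4, none of which passed the test. These intervals leave room for changes of up to 1.81-fold upwards with FGF2.

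PTGS2, the inducible cyclooxygenase, was not above background in any group. Its first probe ranged from 135.8 to 166.7 and its second from 114.6 to 153.3 arbitrary units over the 6 arrays, with detection p-values of 0.167 or more. On the first probe both FGF2 arrays had the highest normalized values (7.29 and 7.38, against 7.16 to 7.26 on the other arrays), and on the second they lay within the range of the others. PLA2G4A, the cytosolic phospholipase A2 that releases arachidonic acid, ranged from 111.5 to 136.3 with a lowest detection p-value of 0.611. A probe in this range gives only an upper limit to the signal, so no fold change was computed for either gene.

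PTGIS, the prostacyclin synthase, was detected far above background on every array and passed no test between groups. Its log2 values were 12.69 and 12.47 in -GFs medium, 12.38 and 12.39 with FGF2, and 12.63 and 12.39 with BMP4. Both FGF2 arrays were below both -GFs arrays, by an amount similar to the distance between the -GFs replicates. The difference was -0.20 (95% interval -0.58 to 0.19, adjusted p = 0.527) for FGF2 and -0.067 (-0.45 to 0.32, adjusted p = 0.999) for BMP4. The lower limit with FGF2 corresponded to 0.668 times the level of -GFs medium.

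PTGER4, the EP4 receptor through which prostaglandin E2 raises cyclic AMP, was represented by 1 probe that did not pass detection. Its intensities were 120.1 and 119.5 in -GFs medium, 135.1 and 120 with FGF2, and 146.4 and 173 with BMP4. The BMP4 arrays were the brightest, yet their detection p-values did not reach the limit (0.149 at the lowest), and the values were not compared further.

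HAS2, the hyaluronan synthase detected in these cells, was higher with FGF2 in both replicate pairs, to unequal extents. Its log2 values were 7.85 and 8.10 in -GFs medium, 8.18 and 9.03 with FGF2, and 7.82 and 8.07 with BMP4, and the deposited intensities ran from 216 to 494.9. The first FGF2 array lay just above the -GFs arrays and the second clearly so, whereas the BMP4 arrays overlapped those of -GFs medium. The difference between FGF2 and -GFs was 0.63 (SE 0.29, 95% interval -0.048 to 1.31), or 0.33 and 0.94 by pair, and did not pass the test with an adjusted p of 0.243. With the replicate number as a block, which removes what the wells of a replicate share, the same difference had a limma adjusted p of 0.00588. In that model, with 2 residual degrees of freedom, PTGES had a limma adjusted p of 8.2e-05. Thus 2 of the 4 tested members passed in it, against 18.1% of all genes. Without the second FGF2 array the HAS2 difference in the model without the block was 0.20. The -GFs and BMP4 values of HAS2 lay not far above the weakest detected probes, which were at 7.56 to 7.62 after normalization. On all arrays with background correction by neqc, without the block, the HAS2 difference between FGF2 and -GFs was 1.07 (limma adjusted p = 0.241). The HAS2 value with BMP4 was -0.026 (95% interval -0.71 to 0.65, adjusted p = 0.999).

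**Figure D2:**
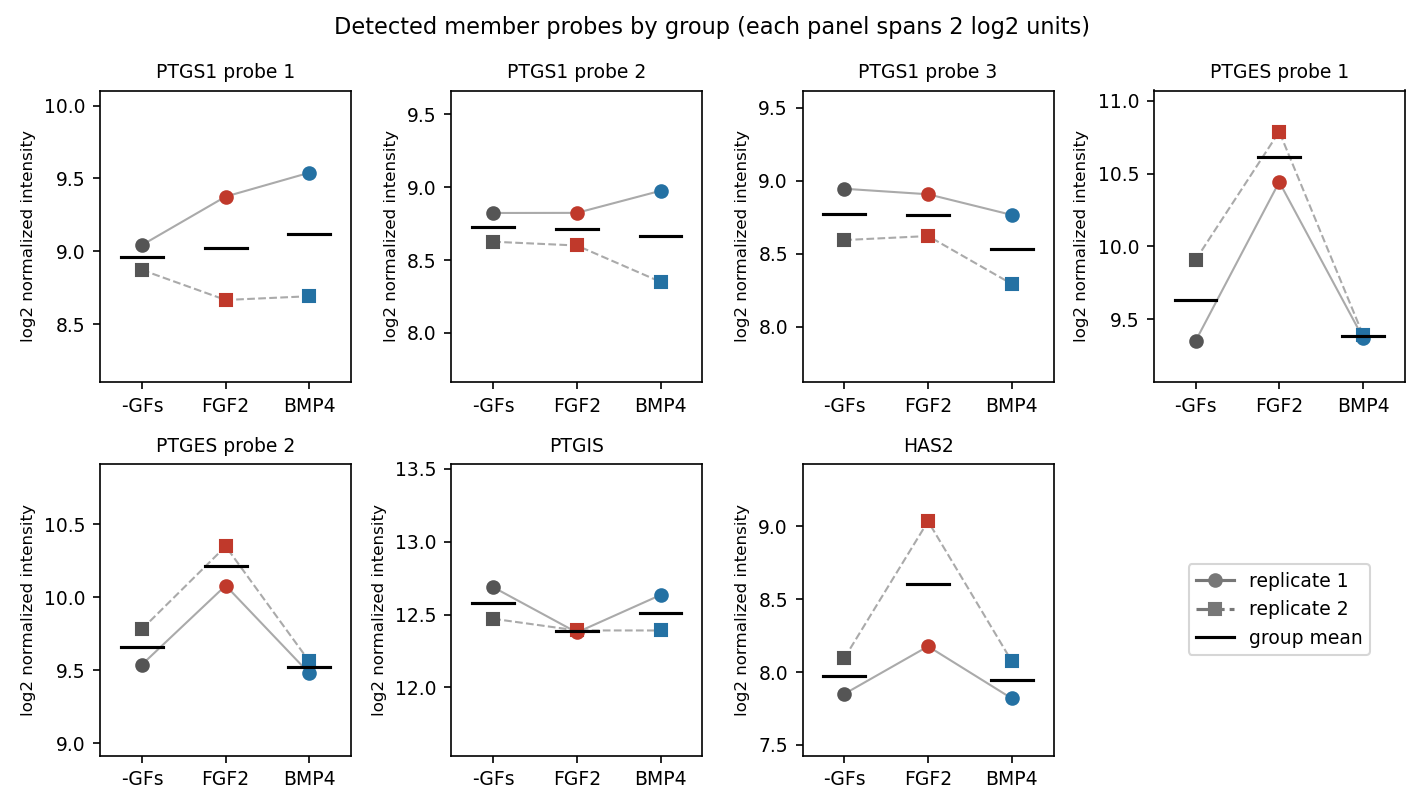
Normalized log2 intensity of the 7 detected probes in the 3 groups. Circles and squares are replicates 1 and 2, joined by lines, bars are group means, and every panel spans 2 log2 units around its own middle, so heights are not comparable between panels. Both PTGES probes and the HAS2 probe peak with FGF2 in both replicates, and the PTGS1 probes separate by replicate.

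The other members of hyaluronan synthesis with a probe, HAS1 and UGDH, had little or no signal. HAS1 was read by 2 probes, the one ranging from 139.6 to 194.5 and the other from 136.7 to 167.3 arbitrary units. On the former the second replicate was brighter than the first in each group, and its single detected value exceeded that of the second BMP4 array (190.1), which was not detected, by a small margin. UGDH, the dehydrogenase that makes UDP-glucuronic acid, ranged from 115.7 to 149.8 with a lowest detection p-value of 0.356. The FGF2 arrays were the brightest, at 149.8 and 147.9, yet below the range of detected probes, and no fold change was computed. HAS3 had no probe of that name.

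BMP4 gave no call among the 4 tested genes, against 0.00842% of all genes. None passed limma's adjusted p, an unadjusted p under 0.05 in limma or in the methods' t-test, or the adjusted p of the model with the block. Among all 11872 genes, 1 passed limma's adjusted p, 27 did so with the block, and 215 had an unadjusted limma p under 0.05. PTGES had the largest value with BMP4, -0.24 (95% interval -0.78 to 0.29), but its pairs gave 0.024 and -0.51. The intervals still allowed for levels from 0.645 to 1.93 times that of -GFs medium for PTGS1 and from 0.584 to 1.22 times for PTGES. The comparisons of FGF2 and of BMP4 with -GFs used the same 2 -GFs arrays.

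Compared directly, FGF2 and BMP4 differed for PTGES. The difference was 1.23 on the log2 scale (SE 0.22, 95% interval 0.70 to 1.76), or 2.34-fold, with a limma adjusted p of 0.0324 and pair values of 1.07 and 1.39. PTGES was thus the 1 called gene of 4, against 3.07% of all genes, and 1 of 4 was also higher by the adjusted p alone, against 4.84%. The other PTGES probe, which did not represent the gene, gave 0.70 with an adjusted p over all probes of 0.0764. The call was lost without either FGF2 array (adjusted p = 0.137 and 0.244) and without either BMP4 array (0.137 and 0.131), and when the mean of both probes was used, whose fold fell to 0.96 on the log2 scale. HAS2 was 0.66 higher with FGF2 than with BMP4 (95% interval -0.022 to 1.34, adjusted p = 0.250), which passed with the block (adjusted p = 0.00508). In that model 2 of the 4 passed, against 16.3% of all genes, the other being PTGES (limma adjusted p = 9.4e-06). PTGIS and PTGS1 gave -0.13 and -0.095 (adjusted p = 0.718 and 0.909).

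**Figure D3:**
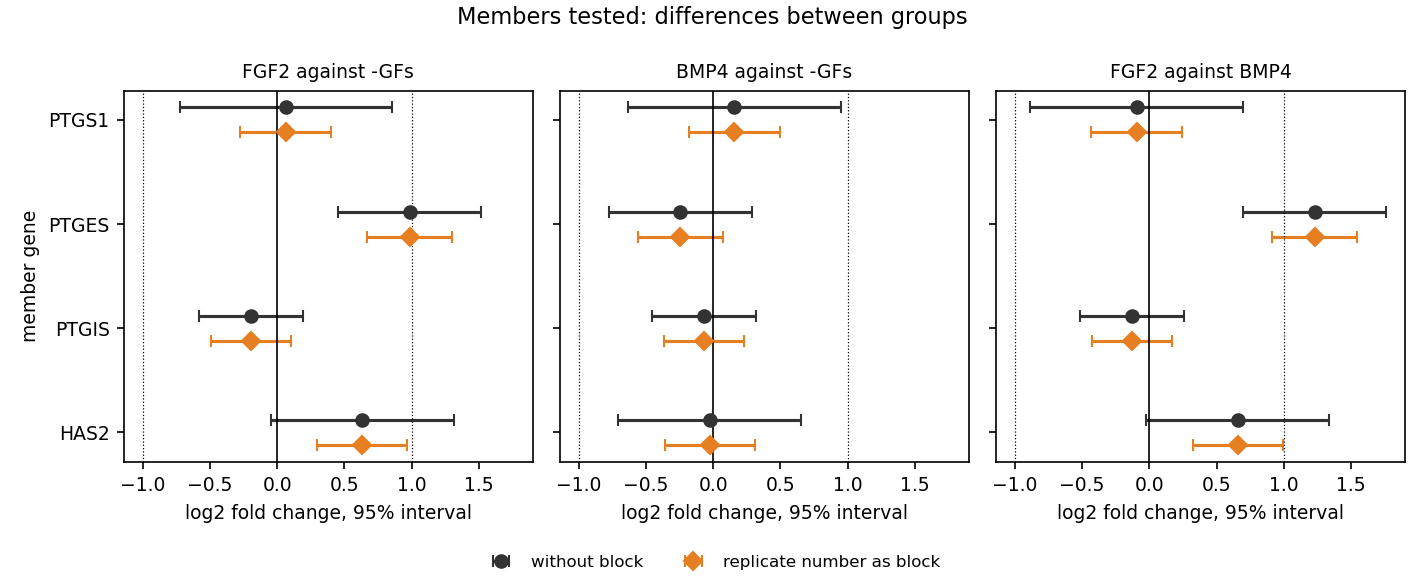
Difference between groups (log2 fold change) of the 4 tested genes with its 95% interval, from limma without (circles) and with (diamonds) the replicate number as a block. Dotted lines mark 2-fold changes. Only the PTGES intervals of FGF2 against -GFs and against BMP4 exclude 0 in both models, and those of HAS2 exclude it with the block.

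The replicates themselves differed for some members, for PTGS1 by more than the groups did. These differences were examined after the values had been seen, as the replicate coefficient of the model with the block. PTGS1 was lower in the second replicate in all 3 groups, with a difference of -0.58 on the log2 scale (95% interval -0.85 to -0.30, adjusted p = 0.00397), and its other probes gave -0.35 and -0.37 (adjusted p over all probes 0.0476 and 0.0266). HAS2 was higher in the second replicate in all 3 groups, by 0.45 (adjusted p = 0.0181). PTGES was also higher, by 0.31 (adjusted p = 0.0839), but with median scaling or background correction by neqc its adjusted p rose to 0.326 or 0.205. PTGIS gave -0.15 (adjusted p = 0.389). In all, 3 of the 4 genes passed, against 28.8% of all genes. What distinguished the replicates is not given in the labels.

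The genes around the members were examined as lists, of which 42 genes were tested in total. The lists were chosen with earlier results of these data known. The shares of all genes given here and in the list paragraphs below therefore describe the lists and do not test them. With FGF2, 11 of them passed the adjusted p, against 11.8% of all genes, and with the block 21 did so, against 37.7%. The median difference over the 42 was -0.0081, and that over all genes -0.020. With BMP4 none of the 42 passed limma's adjusted p, with or without the block. Of all 11872 genes, 1 passed without the block and 27 with it. At an unadjusted p under 0.05, 1 of the 42 passed in limma, against 215 of all genes. In the methods' t-test 3 of the 42 did so, for which no count over all genes is given, and none passed once adjusted. The median over the 42 with BMP4 was -0.078.

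Of the other prostanoid synthases, carriers and inactivating enzymes, 9 of 13 were tested, of which 1 rose and 1 fell with FGF2, beside 6.03% higher and 5.77% lower among all genes. SLCO2A1, the carrier that takes prostaglandins into cells for their inactivation, had log2 values of 11.35 and 11.47 in -GFs medium, 12.93 and 13.39 with FGF2, and 11.43 and 11.24 with BMP4. Both FGF2 arrays stood clear of the rest, and the rise was 1.75 (SE 0.20, adjusted p = 0.0085). On the other SLCO2A1 probes detected on all arrays the rise was 1.75 and 1.85. CBR1, a carbonyl reductase that can convert prostaglandin E2 into prostaglandin F2α, fell by 0.68 (adjusted p = 0.0636), short of the threshold on the fold. Its value ranged from -0.74 to -0.62 on leaving out 1 array. The adjusted p no longer passed without any 1 of the -GFs and FGF2 arrays. With the block 2 rose and 2 fell, against 18.1% and 19.6% of all genes, PTGES3 (0.48) and ABCC4 (-0.50) being the additions. PTGES2, another prostaglandin E synthase, gave 0.33 and the reductase PTGR2 -0.20, neither passing.

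Among the prostanoid receptors other than PTGER4, 2 of 8 were tested and 1 rose with FGF2, against 6.03% of all genes. PTGIR, the prostacyclin receptor, had log2 values of 8.45 and 9.09 in -GFs medium, 10.06 and 10.19 with FGF2, and 8.34 and 8.72 with BMP4. The FGF2 arrays were again above the 4 others. It rose by 1.36 (SE 0.25, adjusted p = 0.0293), with an adjusted p of 0.162 or 0.214 when the first or second FGF2 array was left out. Of 20 genes for other routes of arachidonate release and lipoxygenases, 11 were tested. With FGF2 none rose and 1 fell, against 6.03% higher and 5.77% lower among all genes. That gene, PLA2G4B, a cytosolic phospholipase A2, fell by 1.19 (SE 0.16, adjusted p = 0.0126). That fall missed the threshold without either FGF2 array (adjusted p = 0.110 and 0.107). A dimmer PLA2G4B probe, detected on 3 arrays, gave -0.25 (adjusted p over all probes 0.421), and the mean of the probes gave -0.72. With the block, PLAA also rose and ALOX5AP and ALOX12 fell, against 18.1% higher and 19.6% lower among all genes. ALOX12 was not above background on either the FGF2 or the BMP4 arrays. Its -GFs log2 values, 7.67 and 7.66, lay close to the weakest detected probes of those arrays (7.56 and 7.62). Measured down to the weakest detected probes, it was lower by at least 1.06-fold with FGF2 and with BMP4, without allowance for noise.

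Hyaluronan precursor genes were 12, and of the 8 tested 2 rose with FGF2 and none fell, against 6.03% higher and 5.77% lower among all genes, with a median difference of 0.36. GFPT2, which feeds fructose 6-phosphate into the hexosamine route to UDP-N-acetylglucosamine, had log2 values of 10.48 and 10.76 in -GFs medium, 12.31 and 13.01 with FGF2, and 10.59 and 10.08 with BMP4. The FGF2 arrays did not overlap the others, and the rise was 2.03 (SE 0.28, adjusted p = 0.0146, or 0.107 without the second FGF2 array). UAP1, which completes UDP-N-acetylglucosamine, rose by 0.96 (SE 0.16, adjusted p = 0.0246, or 0.155 and 0.188 without either FGF2 array). With the block 4 rose, against 18.1% of all genes, the other two being GFPT1 (0.49, named 2810423A18RIK on the array) and GPI1 (0.53). UGP2, which makes the UDP-glucose on which UGDH acts, gave -0.20 (adjusted p = 0.764).

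Hyaluronan degradation and receptor genes moved in both directions with FGF2, 2 of 8 tested rising and 2 falling, against 6.03% and 5.77% of all genes. HYAL1, the lysosomal hyaluronidase, had log2 values of 9.86 and 9.86 in -GFs medium, 8.03 and 7.84 with FGF2, and 9.53 and 9.38 with BMP4. It was lowest on the FGF2 arrays, and it fell by 1.92 (SE 0.15, adjusted p = 0.00413), a call kept without any 1 array. With neqc the value was -2.82. TLR2, an innate immune receptor reported to bind hyaluronan fragments, fell by 1.64 (SE 0.35, adjusted p = 0.0461, or 0.146 to 0.228 without the second -GFs or either FGF2 array). CD44, the main cell surface receptor of hyaluronan, rose by 1.31 (SE 0.19, adjusted p = 0.0162, or 0.146 without the second FGF2 array), and another probe detected on all arrays rose by 1.24. CEMIP2 (TMEM2 on the array), a cell surface hyaluronidase, rose by 1.08 (SE 0.26, adjusted p = 0.0618), and another probe gave 0.69 without passing (adjusted p over all probes 0.252). Its call was lost with the mean of its probes (adjusted p = 0.128) and without any 1 of the -GFs and FGF2 arrays (0.103 to 0.322). HYAL2 gave -0.30 and did not pass.

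Of 19 genes for proteins that bind hyaluronan in the matrix, 4 were tested and 1 rose with FGF2, against 6.03% of all genes. PTX3, a pentraxin that takes part in the assembly of hyaluronan-rich matrix, had log2 values of 13.27 and 13.63 in -GFs medium, 14.36 and 14.75 with FGF2, and 13.30 and 13.49 with BMP4. FGF2 stood above the other groups on both arrays. The rise was 1.11 (SE 0.20, adjusted p = 0.0294), or 1.17 on a second probe (adjusted p over all probes 0.117), and the adjusted p became 0.109, 0.108 and 0.221 without the first -GFs array and without the first and second FGF2 arrays. With the block the proteoglycan VCAN rose (0.46) and HAPLN4 fell (-0.51) in addition, against 18.1% higher and 19.6% lower among all genes.

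**Figure D4:**
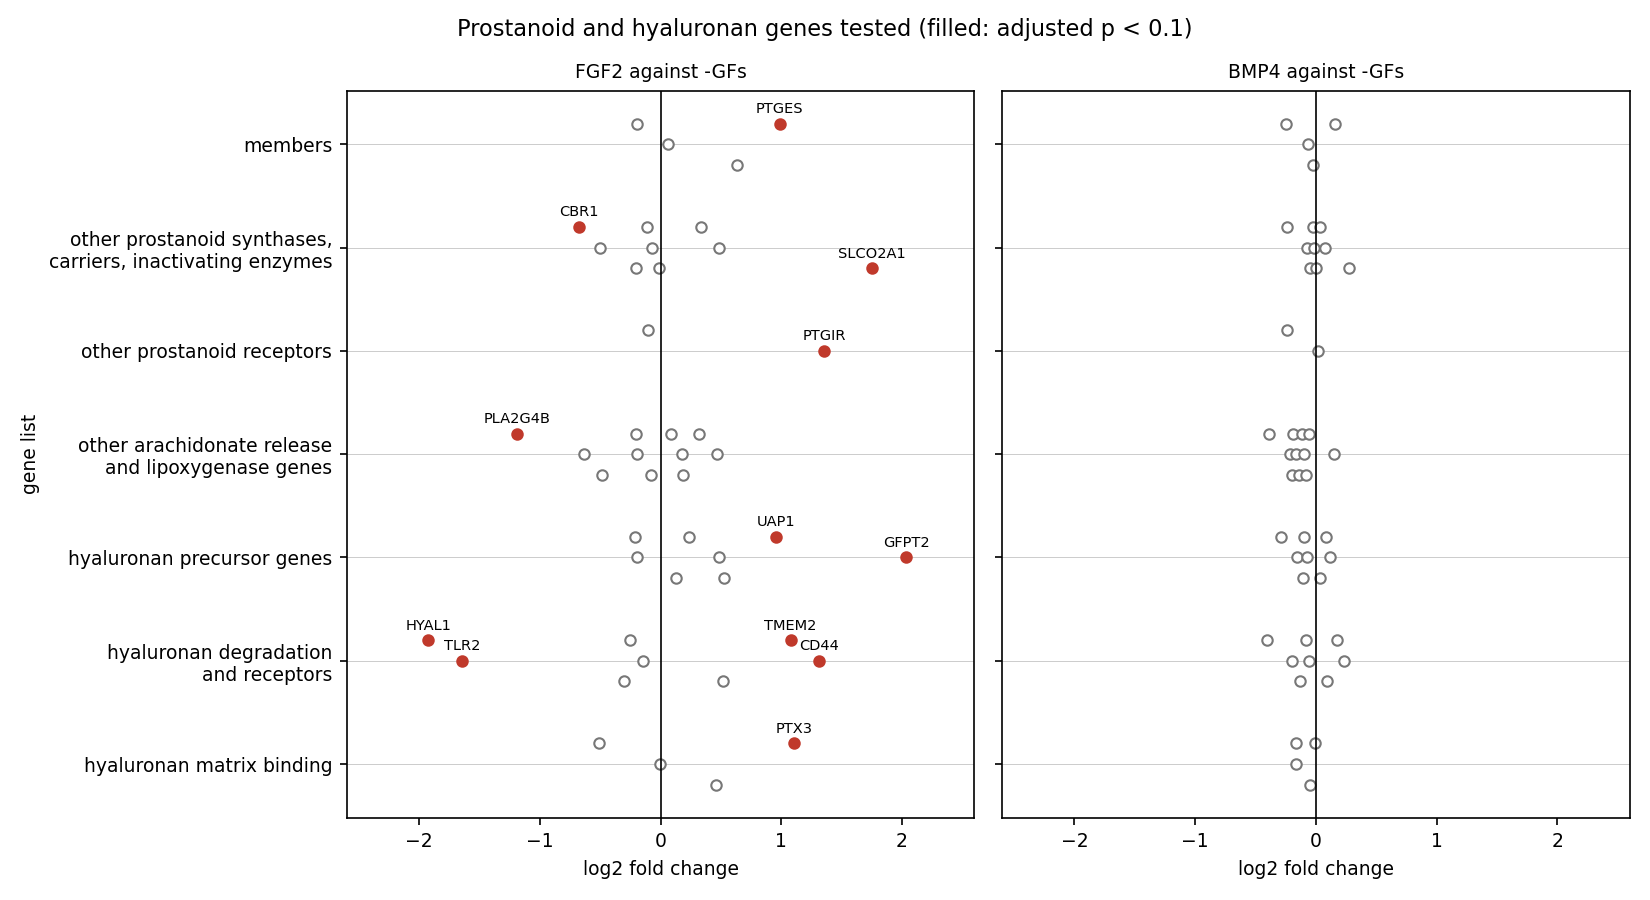
Log2 fold change of every tested gene of the lists with FGF2 (left) and BMP4 (right) against -GFs. Filled and named points passed an adjusted p under 0.1 in limma without the block. Filled points are on the FGF2 side only, on both sides of 0, and range from -1.92 (HYAL1) to 2.03 (GFPT2).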

How the data were processed

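The authors deposited, per probe and array, the mean bead intensity without normalization and a detection p-value, and the submitters' notes name GenomeStudio 2011.01. The table holds 9 unheaded columns, filled on 2045 lines, and 6 leftover lines, which were not used. The deposited detection p-values served only as a filter.

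The intensities were normalized with a re-implementation of the cubic spline named in the methods (452 quantiles) and converted to log2. Of 45281 probes, 16111 were detected (p under 0.05) in both replicates of 1 group or more, and the probe with the largest mean represented a gene. limma 3.58.1 (R 4.3.3) was fitted on all 6 arrays without a block (3 residual degrees of freedom). Adjusted p-values come from limma by the Benjamini-Hochberg method, across all genes or, where stated, all probes. With 2 arrays per group, the smallest two-sided p of an exact permutation test is 0.333, and none was run.

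Members and lists were chosen with earlier results of these data known. Named were every member with its probes, list genes that passed with FGF2, and the treatment check genes. Genes with the pattern most like that of a member called with FGF2 were to be named, but no member was called against -GFs. Those added by the block, those beside the rule (PTGES2, PTGR2, UGP2 and HYAL2) and the replicate comparison were chosen after values were seen. The labels pair the arrays by replicate number, and same-numbered arrays deviated together (correlation across genes 0.602, 0.741 and 0.579). On simulated data for FGF2 against -GFs with 11872 genes, 82 of 100 genes changed by 1.5 and 99 of 100 changed by 2.5 (log2) were recovered, with 10 unchanged genes called. The simulated noise was independent between arrays, without the shared deviation of same-numbered arrays. Each gene kept the detection filter and probe of the real arrays, so the choice of probe was not tested. Recovery of smaller changes, such as those of PTGES (0.99) and HAS2 (0.63) with FGF2 against -GFs, was not tested. Alternatives were other normalizations, detection filters, probe rules, the block, other tests and leaving out each array.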

Additional observations from a re-analysis of the deposited data

How the results depend on the processing

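With FGF2 against -GFs, the count of members called, 0, became 1 (PTGES) without the threshold on the fold and with neqc, 2 (PTGES and HAS2) with neqc and the replicate block, and 0 to 1 on leaving out 1 array, the 1 being without the second -GFs replicate. For FGF2 against BMP4 the count of 1 became 2 with neqc and the replicate block, 0 with the mean of the probes and in the methods' t-test once adjusted (1 at an unadjusted p under 0.05), and 0 to 1 on leaving out 1 array. The BMP4 count stayed at 0. Of all 11872 genes, 271 were called higher and 148 lower with FGF2 against -GFs. These became 432 and 362 with neqc, and 623 and 520 with neqc and the block. Without the threshold on the fold 1401 passed. For FGF2 against BMP4, 240 and 124 were called, or 569 and 418 with neqc and the block. With the mean of the probes they were 215 and 104. The adjusted t-test passed none in that comparison, and no count over all genes is given for its unadjusted p. The replicate block alone left the 3 member counts as they were. By the adjusted p, it changed the outcome of no member other than HAS2. The causes were not tested.

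Only values that passed no test reversed. With median scaling PTGS1 was -0.030 for FGF2 against -GFs, and with the mean of the probes it was -0.048 for BMP4 against -GFs and 0.063 for FGF2 against BMP4. On leaving out 1 array, PTGS1 ranged from -0.29 to 0.42, from -0.27 to 0.58 and from -0.52 to 0.33 in the 3 comparisons, and with BMP4 PTGES ranged from -0.52 to 0.034, PTGIS from -0.19 to 0.055 and HAS2 from -0.15 to 0.10. With the t-test the adjusted p of PTGES was 0.392 against -GFs and 0.283 against BMP4, and that of no list gene passed. Of all genes called with FGF2, 64.7% were higher, against 49.9% with median scaling and 54.4% with neqc. The fall of HYAL1 with FGF2 was -2.82 with neqc, with and without the block, and the rise of DUSP6 was 2.84 with the mean of its probes. No member was detected on both arrays of 1 group and on none of another, so no lower bound of a fold was computed for a member. Signal over background limits what can be said of PTGS2, PTGER4, PLA2G4A, HAS1 and UGDH, whose probes did not pass the detection filter.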
